A study of Mus musculus with 6 samples.

Results

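The proteins described here build and maintain the axon. Of 26728 entries in the deposited expression table, 10 carry these names: Gap43, Thy1, Stmn2, Tubb3, Prph, Nefl, Nefm, Nefh, Sncg and Uchl1. They were picked by name as growth-cone, neurofilament and other peripheral neuron proteins. The list was drawn up with the carotid body against adrenal medulla values of these same libraries known, so the members are also selected on that difference. Their difference between the tissues is therefore given as a description, without a test. The carotid body (CB) is an oxygen sensor at the fork of the carotid artery, reached by a branch of the glossopharyngeal nerve, and the adrenal medulla (AM) releases adrenaline and noradrenaline under sympathetic control. The 6 RNA-seq libraries came from untreated adult C57/BL6 mice, 3 pools per tissue. A pool drew on 10 mice, with 18 carotid bodies or 10 adrenal medullas in it. Both tissues were dissected whole, and the labels name no genotype beyond the strain and no cell sort.

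In an axon, microtubules made of tubulin carry cargo over long distances, and neurofilaments, a class of intermediate filament, set its calibre. Growth-cone proteins such as GAP-43 and stathmin-2 are made by the neuron and shipped to growing or regenerating endings, and the cell bodies of the nerves that reach both organs lie mostly outside them. Chromaffin cells of the AM and glomus cells of the CB share a neural crest origin with sympathetic neurons and carry many neuronal proteins.

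Levels below are in RPKM, read counts scaled by mRNA length in kilobases and by library depth. Amplification in this protocol starts at the poly(A) tail, so reads may not rise in step with mRNA length. Orders, shares and ratios between different genes carry that uncertainty, which was not tested. Libraries held 13266225 to 16445925 reads, and a member was read between 49 times (Nefl in CB pool 2) and 9055 times (Uchl1 in CB pool 3). AM pool 3 had 0 reads of Eif2s3y and 6 of Ddx3y, Y-linked genes read 338 and 839 times in CB pool 3. It also differed in this from AM pools 1 and 2, with 687 and 814 reads of Eif2s3y and 2100 and 2187 of Ddx3y. The 8 adipocyte markers summed to 3747 RPKM in CB pool 2, against 413 and 912 in pools 1 and 3. The AM pools also held cortex, with 8 of 8 tested cortex markers called higher there (limma, Benjamini-Hochberg adjusted p under 0.05 over all tested genes) and summing to 8796 to 12097 RPKM against 14.2 to 105. Markers of the catecholamine cells of both organs were present, with 8 of 12 called higher in the AM and 1, Ddc, in the CB. Tyrosine hydroxylase (Th) was at 543 ± 106 RPKM in the CB against 1793 ± 821 in the AM (SD, n = 3). Over all tested genes, 7.73% were called higher in the AM and 14.2% in the CB. The marker lists were chosen with earlier results of these data known, so their counts are a description.

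The 10 members differed widely in how they divided between the tissues. In 7 of them all 3 CB pools lay above all 3 AM pools, a pattern found in 22.3% of the 13357 genes tested. In 1, Nefm, the AM pools all lay above, as in 14.7% of tested genes, and in Nefl and Uchl1 the pools overlapped. Because the members were chosen with these values in view, nothing is read from those counts. The median log2 difference of the 10, CB minus AM on the log2(RPKM + 1) scale, was 1.12, beside 0.02 over all tested genes. All 10 passed the expression filter of 1 RPKM in at least 3 libraries. Fewer cells of a type and less RNA per cell cannot be told apart in these tissue libraries.

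**Figure D1:**
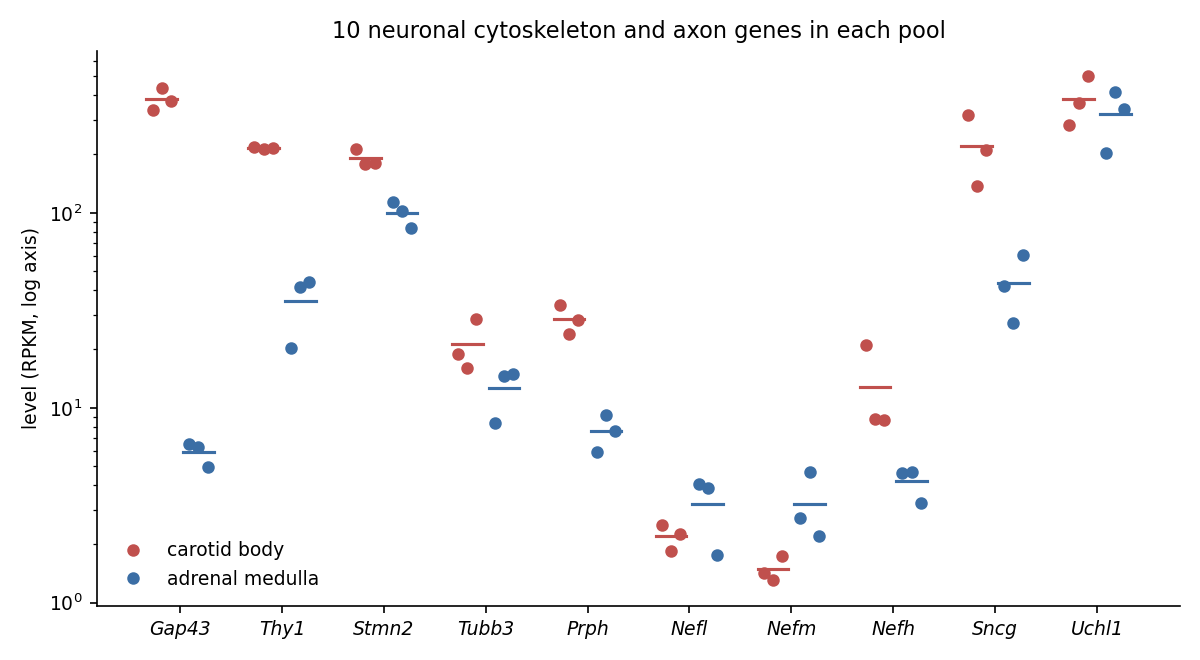
Level of each of the 10 genes in each pool (RPKM, log axis), with red points for CB pools, blue points for AM pools and a bar at the mean of 3 pools. Gap43 is the member with the widest gap, from a mean of 382 RPKM to 5.93, while the points of Uchl1 and of Nefl interleave.

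RefSeq promoter sequences were at hand for 4 of the 10 members, Prph, Sncg, Tubb3 and Uchl1. The stretch before the transcription start is shown for Prph, whose pools separated between tissues, and for Uchl1, whose pools overlapped. Both are from build GRCm38.p6, plus strand, at chr15:99054924-99055173 for Prph and chr5:66675871-66676090 for Uchl1, each ending before the first annotated transcript start. Capitals mark matches to TATAAA or GGGCGG on either strand.

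Prph: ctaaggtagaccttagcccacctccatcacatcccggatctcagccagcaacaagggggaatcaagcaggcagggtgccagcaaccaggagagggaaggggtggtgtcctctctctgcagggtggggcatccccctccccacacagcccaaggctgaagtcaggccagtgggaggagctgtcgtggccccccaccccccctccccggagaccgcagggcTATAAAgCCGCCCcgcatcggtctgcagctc
Uchl1: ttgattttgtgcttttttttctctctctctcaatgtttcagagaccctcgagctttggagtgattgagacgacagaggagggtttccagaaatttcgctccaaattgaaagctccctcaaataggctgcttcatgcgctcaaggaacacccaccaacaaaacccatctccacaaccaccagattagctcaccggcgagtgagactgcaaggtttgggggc

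A TATA box match (TATAAA) lay 31 to 26 bases before the Prph start, and 12.4% of 32851 promoters hold that motif in the same 250-base window on either strand. A GC box match (GGGCGG, here on the reverse strand) followed at 24 to 19 bases, a motif held by 32.7% of promoters. In the Uchl1 window no match was found to these 2 motifs, to the CCAAT box (CCAAT, in 33.8% of promoters) or to the CRE (TGACGTCA, in 1.55%). Tubb3 held GC box matches starting 138 and 46 bases before its start and a CCAAT box match starting at 77, and Sncg held 1 GC box match starting at 78. A match or its lack describes these letters and not the factors bound.

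Gap43, a protein of growth cones and of growing or regenerating axons that is also made by non-myelinating Schwann cells, showed the largest gap among the members. It stood at 337, 435 and 374 RPKM in CB pools 1, 2 and 3 and at 6.50, 6.28 and 4.99 in the AM pools. The lowest CB pool was far above the highest AM pool, and each group was tight, with a coefficient of variation of 12.9% and 13.8%. The ratio of means was 64.5, and the log2 difference 5.79 ± 0.21 (SE, n = 3 pools each). That placed Gap43 at rank 8 from the top of the 13357 genes, and leaving out any 1 pool kept the value between 5.69 and 5.88. Even so, 108 to 118 reads of Gap43 were counted in each AM library.

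Thy1, a small membrane-anchored protein of the immunoglobulin family found on axons and also on fibroblasts and T cells, stood at 217, 212 and 214 RPKM in the CB. Its values in the AM were 20.3, 41.7 and 44.0 RPKM. The CB pools were nearly identical, whereas AM pool 1 was well below the others. The log2 difference was 2.65 ± 0.31 (SE), and 2.30 without that pool. T cell genes were scarce in both tissues, the 8 markers summing to 7.28 to 12.3 RPKM in the CB and 3.84 to 7.80 in the AM. Fibroblast markers were not: their 8 genes summed to 2358 to 3035 RPKM against 64.0 to 173. Of these markers 8 of 8 were called higher in the CB, where 14.2% of all tested genes were. The part of fibroblasts in the level of Thy1 was not tested.

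Among the microtubule proteins, Stmn2, the neuronal stathmin that binds tubulin and regulates microtubule turnover in growth cones, was abundant in both tissues. Its level was 213, 178 and 180 RPKM in the CB pools and 113, 102 and 83.3 in the AM pools. The groups did not overlap, and the ratio of means was 1.92 (log2 difference 0.94 ± 0.22, SE). Set against Gap43, another growth-cone protein, the division between tissues was very different. The CB held 0.410 to 0.633 units of Stmn2 RPKM per unit of Gap43, and the AM 16.2 to 17.4.

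Tubb3, the beta tubulin isotype used as a neuronal marker, stood at 19.0, 16.1 and 28.6 RPKM in the CB and 8.34, 14.6 and 14.9 in the AM. The groups were separated only narrowly, between 16.1 and 14.9 RPKM. The log2 difference of 0.71 ± 0.30 (SE) became 0.46 without AM pool 1, the lowest of its group. Tubulin genes are similar in sequence, so reads may be shared among them and these values carry that uncertainty.

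The filament genes divided differently between the tissues. Prph, which encodes peripherin, the intermediate filament of peripheral and autonomic neurons, was at 33.7, 23.9 and 28.3 RPKM in the CB and 5.91, 9.20 and 7.60 in the AM (log2 difference 1.80 ± 0.24, SE). Nefh, the heavy neurofilament chain, was at 21.1, 8.72 and 8.69 RPKM against 4.61, 4.71 and 3.25. CB pool 1 stood apart for Nefh, and without it the log2 difference of 1.31 ± 0.34 became 0.92. Both genes kept all CB pools above all AM pools.

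The light and medium neurofilament chains did not follow. Nefl was at 2.50, 1.83 and 2.26 RPKM in the CB and 4.07, 3.86 and 1.75 in the AM, and its groups overlapped because AM pool 3 fell below every CB pool. Its log2 difference of -0.36 ± 0.27 (SE) ranged from -0.20 without AM pool 1 and -0.23 without pool 2 to -0.64 without pool 3. Nefm was at 1.42, 1.30 and 1.74 RPKM against 2.73, 4.69 and 2.19, with all AM pools above (-0.72 ± 0.24, and -0.48 without AM pool 2). These are the 2 lowest members in both tissues, at 49 to 111 reads per library for Nefl and 56 to 217 for Nefm.

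The make-up of the filament transcripts also differed between the tissues. Of the summed RPKM of Prph, Nefl, Nefm and Nefh, Prph made up 57.4% to 69.1% in the CB pools and 34.1% to 51.4% in the AM pools. Nefl and Nefm made up 4.26% to 5.52% and 2.43% to 4.25% in the CB, against 11.8% to 23.5% and 14.8% to 20.9% in the AM. The share of Nefh overlapped, at 21.2% to 35.9% against 21.0% to 26.6%. Among the 3 neurofilament chains alone, Nefh was 68.5% to 84.3% in the CB and 35.5% to 45.2% in the AM. These shares rest on the same values as the differences above and add no independent evidence.

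**Figure D2:**
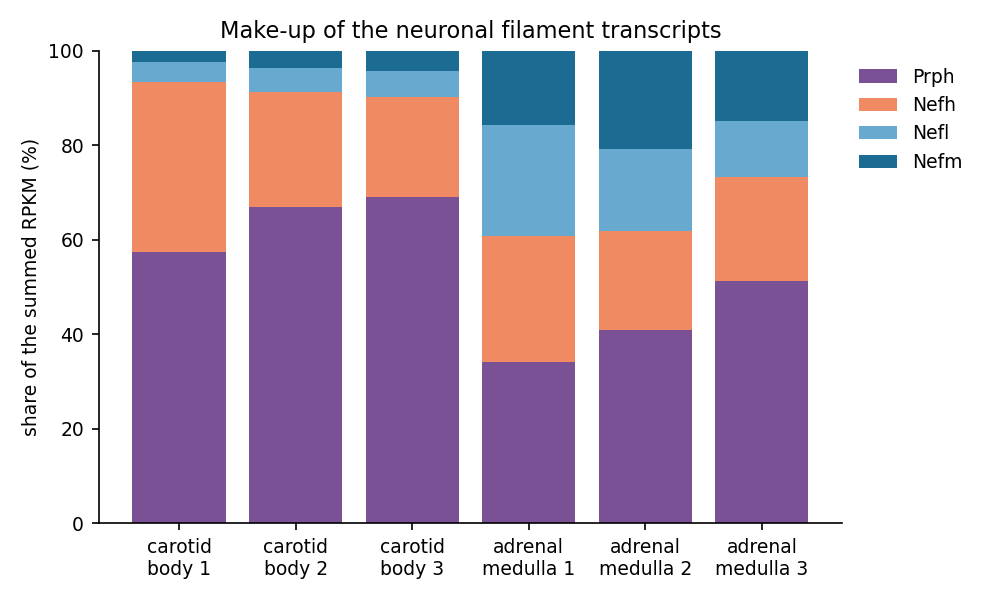
Share of Prph, Nefh, Nefl and Nefm in their summed RPKM (%), one stacked bar per pool. The blue segments, Nefl and Nefm, are thin in the 3 CB pools and wider in the 3 AM pools, while the Prph segment takes 57.4% to 69.1% of each CB bar and 34.1% to 51.4% of each AM bar.

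The length used for Nefl bears on its level. The table lists 2.01 kb for its accession, and the GENCODE M21 transcript with that accession is 3.38 kb, 1366 bases longer. For the other 9 members the lengths differed by at most 169 bases. Amplification in this protocol starts at the poly(A) tail, and how a longer 3' end would change the level of Nefl was not tested. The difference between tissues uses 1 length for all libraries. Nefl and Nefm are neighbouring genes on opposite strands, and the transcripts with the deposited accessions share 0 exon bases. Another annotated model of Nefm shares 1108 exon bases with Nefl, and without strand reads there cannot be told apart.

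Of the soluble members, Sncg, gamma-synuclein of peripheral neurons that is also made by fat cells, was at 316, 137 and 210 RPKM in the CB and 42.3, 27.1 and 60.9 in the AM. All CB pools were higher (log2 difference 2.31 ± 0.38, SE), but it varied more among pools than most members, by a factor of 2.31 and 2.25 within the tissues. Its lowest CB pool, 2, had the highest adipocyte marker sum of that tissue. In the AM the order was the opposite: pool 3 was highest for Sncg and had the highest marker sum (2270 RPKM), and pool 2 was lowest for both (229 RPKM). The part of fat in these values was not tested.

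Uchl1, the ubiquitin hydrolase known as PGP9.5 and used to stain nerves and neuroendocrine cells, was the most abundant member in the AM and level with Gap43 in the CB. It stood at 281, 364 and 503 RPKM in the CB and 202, 418 and 339 in the AM. The pools overlapped broadly, and the log2 difference of 0.28 ± 0.34 (SE) was within its error. It turned to -0.02 without AM pool 1 and ranged up to 0.51 without AM pool 2, with 0.06 without CB pool 3 and 0.48 without CB pool 1. Exons of the antisense gene Uchl1os overlap those of Uchl1 by 295 bases in GENCODE M21, and without strand the reads there cannot be told apart.

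**Figure D3:**
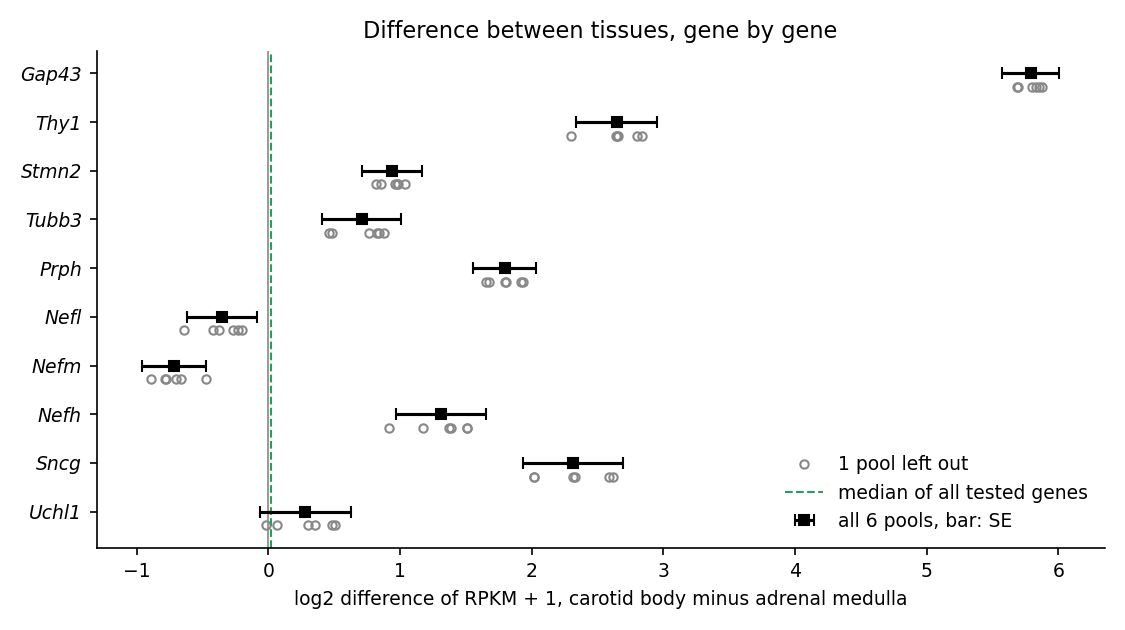
Log2 difference of RPKM + 1, CB minus AM, for each gene, with black squares for all 6 pools, bars for the SE, grey circles for fits with 1 pool left out and a dashed line at the median of all tested genes. Gap43 at 5.79 stands alone, Nefm and Nefl lie below 0, and the circles of Uchl1 reach both sides of 0.

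In order of level, the CB ran Uchl1, Gap43, Sncg, Thy1, Stmn2, Prph, Tubb3, Nefh, Nefl and Nefm. Neighbours whose pools overlapped were Uchl1 with Gap43, Sncg with Thy1, Thy1 with Stmn2, Prph with Tubb3, and Tubb3 with Nefh. The AM ran Uchl1, Stmn2, Sncg, Thy1, Tubb3, Prph, Gap43, Nefh, Nefl and Nefm. There, Sncg overlapped Thy1, Tubb3 overlapped Prph, Prph overlapped Gap43, Nefh overlapped Nefl, and Nefl overlapped Nefm. Gap43 changed place most, from the second position to the seventh. From the highest to the lowest member the means spanned a factor of 257 in the CB and 99.8 in the AM.

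Within a tissue the members did not follow a single order over the pools. Deviations of log2(RPKM + 1) from the tissue mean, a measure that leaves out the difference between tissues, gave 45 pairs of members. Over the 6 pools 26 pairs had a correlation above 0 and 19 below 0, with a median of 0.13, given as a description because pools share depth and dissection. Stmn2 with Nefl (0.90) and Tubb3 with Uchl1 (0.86) were the most alike, and Gap43 with Sncg (-0.89) the least. CB pool 2, the pool with the highest adipocyte sum, was the lowest of its tissue for 7 members but the highest for Gap43. AM pool 1 was lowest for Thy1, Tubb3, Prph and Uchl1, and pool 3 for Gap43, Stmn2 and the 3 neurofilament chains.

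**Figure D4:**
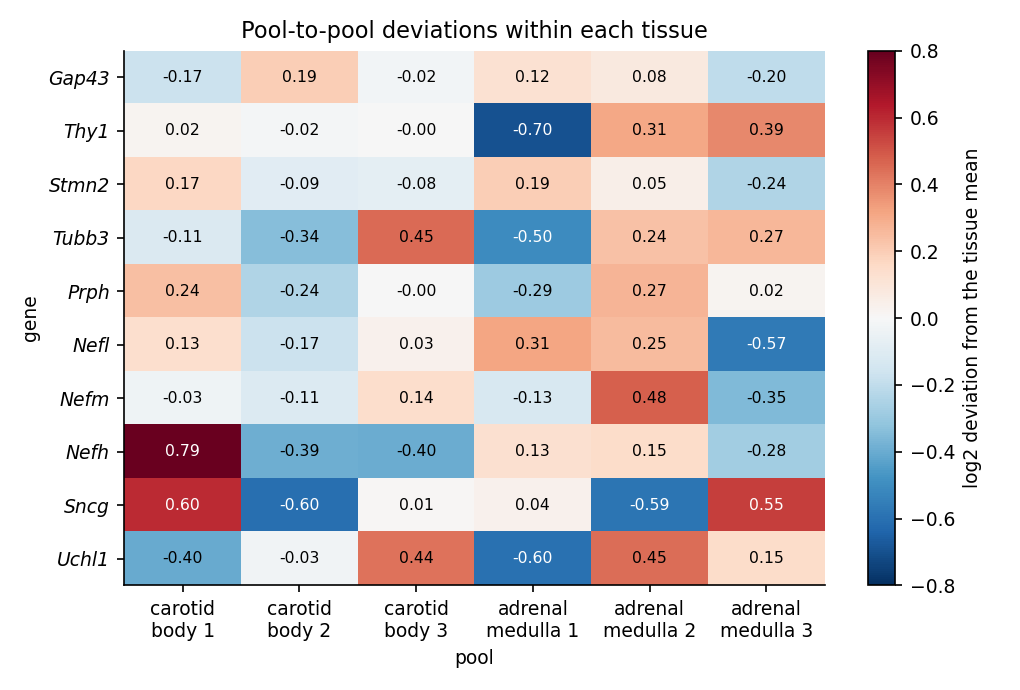
Deviation of log2(RPKM + 1) of each gene (rows) in each pool (columns) from the mean of its tissue, red above and blue below. Nefh and Sncg are high in CB pool 1 (0.79 and 0.60), and Thy1 and Uchl1 are low in AM pool 1 (-0.70 and -0.60).

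Most markers of nerve cell bodies were near 0. Of 21 markers of sensory and autonomic neurons, 12 stayed under the filter and at or below 0.903 RPKM in every library. They include Chat, which makes acetylcholine, at up to 0.132 RPKM, Slc17a6, a vesicular glutamate transporter, at up to 0.174, and the sodium channel gene Scn10a, at up to 0.00948. The transcription factor gene Pou4f1 was at 0 in 3 libraries. Glia markers were higher in the tissue where Gap43 was. Of 18 Schwann and sustentacular cell genes 16 were tested, and 16 of those were called higher in the CB, where 14.2% of all tested genes were. The glia lists were chosen with earlier results of these data known, so this count is a description. The myelinating markers summed to 301 to 351 RPKM against 80.4 to 87.6, and the other glia markers to 355 to 543 against 55.7 to 80.7. S100b, a calcium-binding protein of glia, was at 137 ± 18.9 against 13.4 ± 2.88 RPKM (SD, n = 3; log2 difference 3.27, limma adjusted p = 3.79e-05). The part of glia in the level of Gap43 was not tested.

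Relatives of the members were read in 12 families, 95 genes of which 86 were tested. Of these, 33 were called higher in the CB, or 38.4% against 14.2% of all tested genes. Another 7 were called higher in the AM, or 8.14% against 7.73%, and 46 were not called. The lists were chosen with earlier results of these data known, so the shares are a description and no excess is read from them. The shares over all tested genes are also the background for each family count below. The median log2 difference of the 86 tested relatives was 0.52. The count for the CB fell to 18 without CB pool 3, and to 22 without pool 2. That for the AM fell to 4 without CB pool 1 or without AM pool 2. The CB libraries also carried more fibroblast, smooth muscle and glia transcripts, cells that express several of these genes, and their part in the counts was not tested.

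Intermediate filaments outside the members were higher in the CB in 4 of 7 cases and higher in the AM in 0. Vim, the vimentin of fibroblasts, endothelium and glia, was at 1171 ± 291 against 47.9 ± 9.21 RPKM (SD, n = 3), a log2 difference of 4.57 ± 0.28 (SE, limma adjusted p = 2.03e-05). Nes, the nestin of progenitor, glia and vessel cells, differed by 1.97, Synm by 1.34 and Gfap, the filament of glia, by 0.76 (1.23 with a pseudocount of 0.1). Ina, which encodes the neuronal filament alpha-internexin and can assemble with neurofilaments, was not called, at 15.2 ± 5.84 against 11.2 ± 3.52 RPKM (0.38, limma adjusted p = 0.529). Its difference was 0.19 without CB pool 2, 0.22 without CB pool 3 and 0.18 without AM pool 3, and 0.72 without CB pool 1 and 0.59 without AM pool 2. Per length Ina was above Nefl and Nefm in both tissues.

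Among the stathmins and tubulins related to Stmn2 and Tubb3, more members were called in the CB than in the AM. Of 3 further stathmins 2 were called higher there and 0 lower. Stmn1, the broadly expressed form, was at 476 ± 68.9 against 120 ± 19.0 RPKM (log2 difference 1.98, limma adjusted p = 5.43e-04). Stmn4, a brain form, was at 10.9 ± 9.97 against 1.79 ± 1.14 RPKM (1.88, limma adjusted p = 0.0450). Its call was lost without CB pool 2 (limma adjusted p = 0.0626) or 3 (0.0876, log2 difference 1.23) and without AM pool 1 (0.121) or 2 (0.0651), and with quantile scaling (0.0649), median-ratio scaling (0.0526) or no filter on low values (0.202). Stmn3, a neuronal form, was not called, at 177 ± 19.6 against 174 ± 24.1 RPKM (0.03, limma adjusted p = 0.951). Of 11 tested tubulins 6 were higher in the CB and 1, Tuba4a, in the AM. Tuba4a differed by -0.82 (limma adjusted p = 0.0429), a call lost without CB pool 1 (0.140) or 2 (0.123), without AM pool 2 (0.159) or 3 (0.0669), and with no filter (0.0804). Tuba1a was at 778 ± 140 against 274 ± 34.2 RPKM (1.49), Tubb2a differed by 1.64 and Tubb2b by 2.00. Each of the 3 thus differed by more than Tubb3 itself did on the log2 scale, though the gap between these genes was not tested. Sncb, beta-synuclein, was not called (0.79, limma adjusted p = 0.244). Its difference was 0.36 without CB pool 3 and 0.47 without AM pool 1, and up to 1.13 without CB pool 1. Of the 4 ubiquitin hydrolases related to Uchl1, 0 were called in either direction.

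Called relatives of Gap43 went in opposite directions. Marcks, a membrane-bound actin regulator of many cell types, was higher in the CB (log2 difference 1.19, limma adjusted p = 0.0249), and Basp1, which resembles GAP-43 in its place at the growth-cone membrane, was higher in the AM (-0.86, limma adjusted p = 0.0355). Marcks lost its call without CB pool 2 (limma adjusted p = 0.0766) or 3 (0.0519). Basp1 lost its call without any 1 of the CB pools (limma adjusted p = 0.124, 0.0710 and 0.0772) and without AM pool 1 (0.0539) or 2 (0.156). With no filter on low values neither was called, at 0.0958 and 0.0717. The other 3 of the family, Marcksl1, Nrgn and Gprin1, were not called.

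Of 9 tested microtubule-associated proteins, 2 were higher in the CB, or 22.2%, near the 14.2% of all tested genes. In the AM 1 was higher, or 11.1%, near the 7.73% of all tested genes. The 2 in the CB were Dclk1, a doublecortin-like kinase (2.52, limma adjusted p = 2.88e-04), and Map4, a form also widespread outside neurons (1.52). Mapt, the axonal protein tau, was higher in the AM, at 35.7 ± 19.5 against 11.1 ± 0.419 RPKM (-1.49, limma adjusted p = 0.0133, and 0.0772 with no filter on low values). Of 4 tested collapsin response mediators, which relay guidance signals to the cytoskeleton, Dpysl3 (1.32) and Dpysl4 (1.23, and 2.39 with a pseudocount of 0.1) were higher in the CB. Of 9 transport motors 2 were higher in the CB, or 22.2%, again near the 14.2% of all tested genes. They were Kif1a, the carrier of synaptic vesicle precursors (1.00, limma adjusted p = 0.00638), and Kif5a, a neuronal kinesin heavy chain (0.92, limma adjusted p = 0.0271). The Kif5a call was lost without CB pool 2 (0.0908) or 3 (0.104), without AM pool 1 (0.0857) or 2 (0.0563), and with no filter (0.0870). The membrane skeleton gave 6 of 10 higher in the CB and 0 in the AM, with the spectrin gene Sptbn1 at 1.48 and the adducin gene Add3 at 1.36.

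Adhesion molecules of axons, which hold fibres to one another and to glia, gave 5 of 10 higher in the CB and 1 higher in the AM. Chl1 differed by 1.85 (limma adjusted p = 0.00122), L1cam by 1.00, Cntn1 by 1.06, Lsamp by 1.03 and Ncam1 by 0.87, while Nrcam differed by -1.28 (limma adjusted p = 0.00588). The calls of Chl1 and Nrcam held with any 1 pool left out. L1cam lost its call without CB pool 3 (limma adjusted p = 0.0676). Ncam1 lost its call without any 1 of the 6 pools (0.0526 to 0.127). Cntn1 lost its call without CB pool 1 (limma adjusted p = 0.117), 2 (0.104) or 3 (0.0643) or AM pool 2 (0.0670). Lsamp lost its call without CB pool 1 (0.101) or 3 (0.127) or AM pool 2 (0.0915) or 3 (0.0541). With no filter on low values Ncam1, Cntn1 and Lsamp were not called either (limma adjusted p = 0.105, 0.117 and 0.0976).

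General neuronal genes were called in both directions. Of 12 tested, 2 had their call in the CB (16.7%, near the 14.2% of all tested genes). Another 3 had it in the AM (25%, against 7.73% of all tested genes), and 7 had none. Nsg2, an endosomal protein of neurons, was at 19.8 ± 4.27 RPKM in the CB and 97.8 ± 5.62 in the AM (log2 difference -2.27, limma adjusted p = 1.86e-04). Rbfox3, the splicing factor known as NeuN, was at 0.233 ± 0.0712 against 3.05 ± 1.24 RPKM (-1.66, limma adjusted p = 0.00150, and -3.17 with a pseudocount of 0.1). Nsg1, a relative of Nsg2, was at 43.6 ± 20.6 against 109 ± 43.1 RPKM (-1.32, limma adjusted p = 0.0415). Its call was lost without CB pool 1 (limma adjusted p = 0.151) or 2 (0.119), without AM pool 2 (0.147) or 3 (0.0603), and with no filter (0.160). On the other side were Eno2, the neuronal enolase (0.84, limma adjusted p = 0.0208), and Fez1, a transport adaptor (0.80, limma adjusted p = 0.0322). Eno2 lost its call without CB pool 1 (0.0578), 2 (0.0678) or 3 (0.0735) or AM pool 1 (0.0727). Fez1 lost its call without CB pool 2 (limma adjusted p = 0.109) or 3 (0.133) or AM pool 1 (0.0686) or 2 (0.0956).

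**Figure D5:**
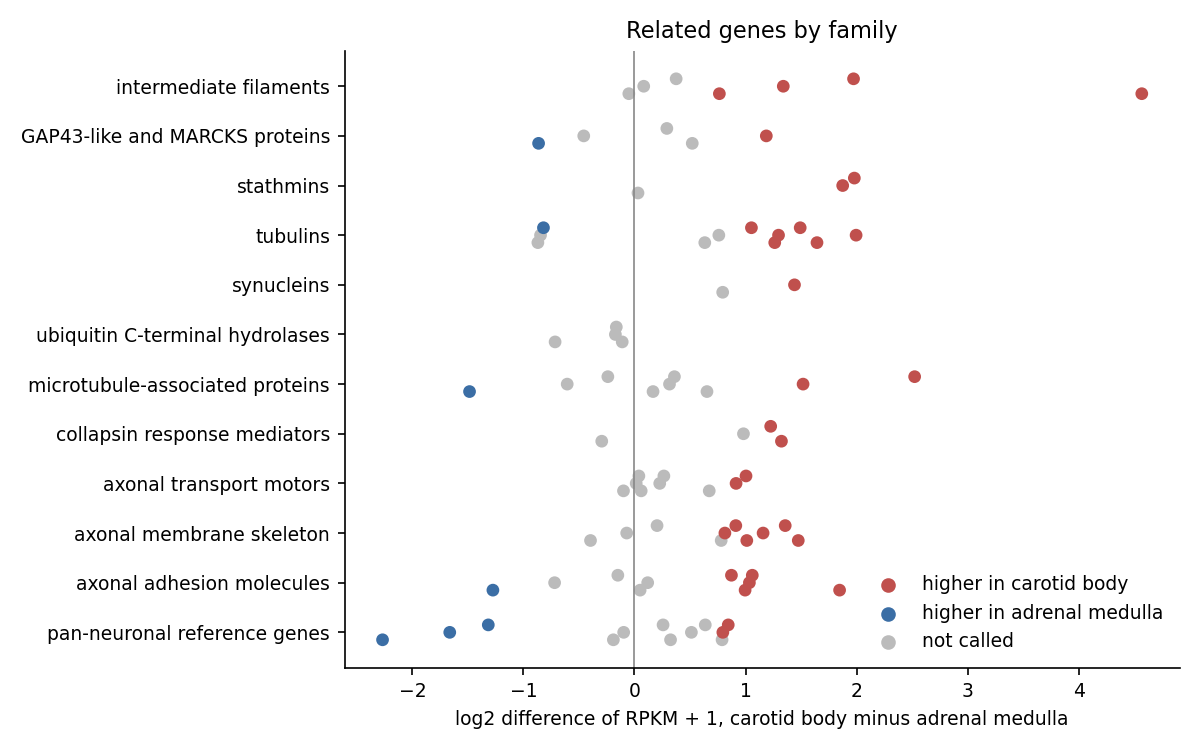
Log2 difference of RPKM + 1, CB minus AM, for each tested relative, by family, with red points called higher in the CB, blue points called higher in the AM and grey points not called. Red points lead among intermediate filaments, tubulins and the membrane skeleton, with Vim at 4.57 farthest right, and the 3 blue points of the pan-neuronal row reach -2.27.

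The genes whose profile over the 6 libraries came closest to Gap43 were Rgs5, Olfr78, Coch, Sfrp2 and Pkib, at a root-mean-square distance of 0.170 to 0.337 between centred log2(RPKM + 1) values. Rgs5 brakes G protein signalling and is on the smooth muscle and pericyte list used here. It stood at 1770, 1773 and 1465 RPKM in the CB and 35.8, 30.8 and 21.8 in the AM. Olfr78, at rank 2, was at 70.1, 128 and 103 RPKM against 1.49, 1.34 and 0.400. Coch, which encodes an extracellular matrix protein, was at 43.8, 45.5 and 36.0 against 0.0277, 0.104 and 0.0680 RPKM. For Nefm the closest were Pdia5, Prc1, Vapb, Camk2n2 and Cenpj, at 0.0507 to 0.135. Pdia5, a protein disulfide isomerase, was at 5.41, 5.42 and 6.38 RPKM against 9.06, 13.2 and 7.74. Likeness here is over 6 libraries of 2 tissues and includes the difference between them.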

How the data were processed

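Tissue RNA was purified on micro columns and amplified with an aRNA kit, per the labels' protocols, which leave strand unstated. The submitters' processing notes name Bowtie 0.9.8 and mm9; the counting tool is not given in the sources used here. The deposited table is titled RPKM by the authors and gives it for 23511 entries with an mRNA length. The other 3217 entries hold plain counts (5.85% to 8.27% of reads) and were left out. The values rise in steps of 1 read, which gave each library's depth, and converted to reads 106276 of 106276 values above 0 were whole within 0.01.

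Differences were fitted with limma 3.58.1 (R 4.3.3), using the variance trend, on log2(RPKM + 1) of the deposited values, over 13357 genes at 1 RPKM or more in at least 3 libraries. P-values are two-sided, adjusted by Benjamini-Hochberg over all of these, and called under 0.05. They measure only the spread between pools. On this scale the differences of low genes are understated. The fit was tested on simulated data. Python 3.11.15 with pandas 2.3.3, numpy 2.4.6 and matplotlib 3.10.9 made tables and plots.

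The members and lists were chosen with earlier results of these data known. From each list up to 4 called genes with the largest absolute log2 difference could be named, plus any that spell out a count of 5 or fewer. Ina, Stmn3, Sncb and Th were named after their values were seen. Some list genes are not reported here. For Gap43 and Nefm the 5 nearest profiles were named. All 10 member accessions were found in the RefSeq table of GRCm38.p6. Alternatives covered the pseudocount (0.1), the filter, the scaling, left-out pools and a block.

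Pools of both tissues carry the numbers 1 to 3. Deviations from the tissue mean correlated at 0.259, 0.128 and 0.473 between same-numbered pools. Differently numbered pools were not compared, so these values cannot show whether the numbers pair the pools. AM pool 3 lacked nearly all of the Y-linked reads of CB pool 3, and the pairing is left unsettled. The main fit has no replicate block.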

Additional observations from a re-analysis of the deposited data

How the results depend on the processing

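Leaving out 1 pool at a time, the relatives called higher in the CB numbered 18 to 34 (33 with all pools) and those higher in the AM 4 to 7 (7 with all pools), each with fewer libraries. With a replicate block the counts were 39 and 9, and 0 of 70 followed list genes lost a call. With no filter on low values they were 24 and 5, under quantile scaling 32 and 9, and under median-ratio scaling again 32 and 9. Over all genes, leaving out 1 pool gave 1460 to 1999 higher in the CB and 692 to 1464 higher in the AM, against 1896 and 1033. Without CB pool 2 and AM pool 3 together, 1928 and 2067 were called, and the share of calls in the CB moved from 64.7% to 48.3%; the cause was not tested. Quantile scaling gave a share of 55.0%. The median member difference was 0.89 to 1.25 over the left-out pools. Gap43 moved past its pool spread at 5.99 with a pseudocount of 0.1 and 5.59 without CB pool 2 and AM pool 3. Of 840 combinations of a called list gene and an alternative, 89 lost the call and 0 changed sign, and 50 of the 70 genes kept it in every alternative that tested them. Values of genes not called crossed 0 for Stmn3 (-0.021 with median-ratio scaling, and -0.077 to 0.12 over the left-out pools) and Ina (-0.011 without CB pool 2 and AM pool 3). Nefl and Nefm rest on 49 to 217 reads per library, and Gap43 in the AM on 108 to 118, which limits their precision.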

Other observations

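A few neuron markers did pass the filter, and they divided between the tissues. Avil, an actin regulator of sensory neurons, was higher in the CB, at 2.17 ± 0.322 against 0.266 ± 0.257 RPKM (SD, n = 3 pools; log2 difference 1.34, or 2.84 with a pseudocount of 0.1, limma adjusted p = 0.00111). Chrnb4, a nicotinic receptor subunit of chromaffin cells and autonomic ganglia, was higher in the AM, at 9.34 ± 2.79 against 2.29 ± 0.228 RPKM (-1.62, limma adjusted p = 0.00155).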
